A study of Rattus norvegicus with 26 samples.

Results

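The genes described here are a list of 8 cholesterol efflux and foamy macrophage genes, Abca1, Abcg1, Nr1h3, Plin2, Soat1, Lipa, Npc2 and Cd36, chosen by their names in the table of counts. The list was chosen with earlier results of these data known, so the shares over all genes given beside it are a description. Rows were found for 7 of the 8 among the 32883 genes of the table, 1 row each, and all 7 passed the filter on low counts, which left 17990 genes to test. Cd36, a scavenger receptor for fatty acids and oxidised lipoproteins, was not analysed here. Poly(A) RNA was sequenced from 26 libraries of rat spinal cord in 8 groups, all from wild type adult female Sprague-Dawley rats labelled as post natal day 70. Intact (n = 4) was labelled as untreated, and the other 7 groups had a clip compression injury at the thoracic level (60 g for 1 min). The study also writes of Intact as intact/sham, and whether these rats had the laminectomy that preceded the clip is not given in the sources used here. At 7 days after injury the cord was taken without transplantation (sub-SCI, n = 3), or the rats were injected intrathecally with PBS (+PBS) or with hUC-MSCs, mesenchymal stem cells from human umbilical cord (+MSC), and the cord was taken 1, 2 or 4 weeks post transplantation (wpt), that is 14, 21 or 35 days after injury. The +PBS groups held 3, 2 and 4 libraries and the +MSC groups 3, 3 and 4 libraries at 1, 2 and 4 wpt. Each library came from a 5 mm segment centred on the lesion. According to the methods of the study, the rats received the immunosuppressant cyclosporin A daily, and reads that mapped to the human genome were removed before the rat reads were counted. Whether Intact rats received the drug is not given in the sources used here.

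Debris of damaged myelin is rich in cholesterol, and after spinal cord injury it is taken up by microglia and by macrophages that enter from the blood. In the lysosome the lipase Lipa splits cholesterol esters, and the small carrier Npc2 binds the free cholesterol and hands it on for export from the lysosome. Free cholesterol is either esterified again by Soat1 in the endoplasmic reticulum and stored in droplets coated by Plin2, which gives a cell its foamy look, or pumped out of the cell by the transporters Abca1 and Abcg1 onto lipoprotein particles. Nr1h3 encodes LXR alpha, the nuclear receptor that senses oxysterols and switches on Abca1, Abcg1 and other efflux genes.

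The promoters of the list are shown for Abca1 and Plin2, because these had the largest log2 fold changes of the 7 genes in sub-SCI against Intact and were the ones in which a searched motif was found. Sequences are those of RefSeq on GRCr8, which is not the build the reads were aligned to, and cover the 250 bases before the annotated start. A start was listed for Abca1, Soat1, Nr1h3, Cd36, Npc2 and Lipa, there were 2 starts for Plin2, of which the one upstream is printed, and Abcg1 had no entry. Both strands were searched for a loose form of the DR4 direct repeat that LXR binds with its partner RXR (2 half-sites NGGTNA with 4 bases between them), for CACGTG, the core of the element of lysosomal genes, and for TGANTCA, the AP-1 site. Capitals mark the matches. In Abca1 (minus strand, chr5:72596474-72596723) CACGTG lies first and the direct repeat second, the latter read on the strand opposite to the gene. In Plin2 (minus strand, chr5:106229019-106229268) there is 1 CACGTG.
Abca1: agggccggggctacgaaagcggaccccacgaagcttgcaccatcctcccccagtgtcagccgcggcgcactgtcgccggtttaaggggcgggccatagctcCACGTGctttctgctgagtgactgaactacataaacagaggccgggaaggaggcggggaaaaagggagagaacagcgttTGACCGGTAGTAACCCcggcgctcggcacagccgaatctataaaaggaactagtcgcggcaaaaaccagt
Plin2: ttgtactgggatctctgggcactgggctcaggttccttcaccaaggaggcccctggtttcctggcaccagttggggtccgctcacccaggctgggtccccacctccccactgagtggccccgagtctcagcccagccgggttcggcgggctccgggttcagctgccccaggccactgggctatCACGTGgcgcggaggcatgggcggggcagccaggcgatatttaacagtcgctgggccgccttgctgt
The direct repeat was found in 0.589% of 33469 promoters of the same length and ended 55 bases before the start of Abca1. CACGTG was in 5.59% of them and TGANTCA in 6.34%, the latter in none of the windows of the list. A match is a stretch of letters and was not tested for binding.

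Totals ran from 19496602 to 43468509 counts per library. Levels are given as CPM, counts scaled to library sizes adjusted by TMM, and levels of different genes are compared only as RPKM, that is CPM per kilobase of the gene length in the table. A gene was called when the log2 fold change was above 1 in size and the adjusted p was under 0.01 (edgeR's quasi-likelihood test, Benjamini-Hochberg over all genes tested). The libraries labelled replicate 1 stood apart, in that 337 of the 17990 genes had their highest CPM of the group in that library in each of the 8 groups and 81 had their lowest, none of them among the 7 genes described here. Replicate 1 was still the lowest library in 5 of the 8 groups for Abcg1, Soat1 and Lipa, and the highest in 3, 1 and 2. The methods of the study call the libraries biological replicates, and the labels do not say that each was a separate animal, so the p-values measure the spread between these samples.

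Per length, Npc2 had the highest level of the 7 genes in every group and Nr1h3 the lowest. Npc2 stood at 155.9 RPKM in Intact and 1038 RPKM in sub-SCI, a level above 97.8% and 99.7% of the genes tested. Nr1h3 stood at 3.92 and 14.8 RPKM, above 38.1% and 67.3% of them. Abca1, at 5.58 RPKM in Intact, was next to lowest there, and at 65.1 RPKM in sub-SCI it lay between Lipa (87.2 RPKM) and Soat1 (58.2 RPKM). Plin2 moved from 18.1 to 168.9 RPKM, Lipa from 18.3 to 87.2 RPKM, Abcg1 from 16.03 to 42.95 RPKM and Soat1 from 7.94 to 58.2 RPKM. Abcg1 thus changed from a level near those of Lipa and Plin2 in Intact to one below them and below Soat1 and Abca1 in sub-SCI.

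The first question was how the list stood after injury. In sub-SCI against Intact all 7 genes rose, by 2.68-fold (Abcg1) to 11.7-fold (Abca1). Of all genes tested, 16.6% were called higher in this comparison. The median log2 fold change of the 7 genes was 2.74, and that of all genes tested was -0.018. In each of the 7 genes every sub-SCI library was above every Intact library, which was so for 32.9% of all genes.

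Among the efflux genes, the 4 Intact libraries held 39.7, 51.2, 56.3 and 83.5 CPM of Abca1, the transporter that loads cholesterol onto lipid-poor apolipoproteins. The 3 sub-SCI libraries held 592.8, 650.1 and 776.8 CPM. The lowest injured library was thus far above the highest Intact library, and the log2 fold change was 3.54 ± 0.302 (SE; edgeR, adjusted p = 3.2e-09). Abcg1, which moves cholesterol onto mature lipoprotein particles, stood at 50.8, 61.3, 67.7 and 69.8 CPM in Intact and at 122.1, 168.1 and 211.1 CPM in sub-SCI. It rose least of the list, by 1.42 ± 0.182 on the log2 scale (SE; edgeR, adjusted p = 8.67e-07), and its 3 sub-SCI libraries were more spread than those of Plin2. Nr1h3, the LXR alpha receptor, stood at 4.86, 6.12, 6.52 and 8.11 CPM in Intact and at 20.1, 25.1 and 27.2 CPM in sub-SCI. Its log2 fold change was 1.91 ± 0.21 (SE; edgeR, adjusted p = 1.07e-07).

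Among the storage genes, Plin2, the coat protein of lipid droplets, stood at 29.2, 34.4, 35.4 and 35.5 CPM in Intact and at 304.6, 318.2 and 319.4 CPM in sub-SCI. The libraries of each group lay close together and the gap between the groups was wide, with a log2 fold change of 3.22 ± 0.193 (SE; edgeR, adjusted p = 2.94e-11), the smallest adjusted p of the list. Soat1, the enzyme that makes cholesterol esters, stood at 12.01, 14.7, 16.9 and 18.4 CPM in Intact and at 91.3, 120.8 and 128.5 CPM in sub-SCI. It rose by 2.87 ± 0.268 on the log2 scale (SE; edgeR, adjusted p = 1.08e-08). Among the lysosomal genes, the acid lipase Lipa stood at 55.2, 55.6, 62.6 and 71.1 CPM in Intact and at 258.2, 306.3 and 312.2 CPM in sub-SCI. Npc2, the cholesterol carrier, stood at 187, 191.3, 193.8 and 211.4 CPM in Intact and at 1167, 1248 and 1498 CPM in sub-SCI. Both groups were again separate in both genes, with log2 fold changes of 2.26 ± 0.199 for Lipa (SE; edgeR, adjusted p = 4.8e-09) and 2.74 ± 0.202 for Npc2 (SE; edgeR, adjusted p = 4.61e-10).

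**Figure D1:**
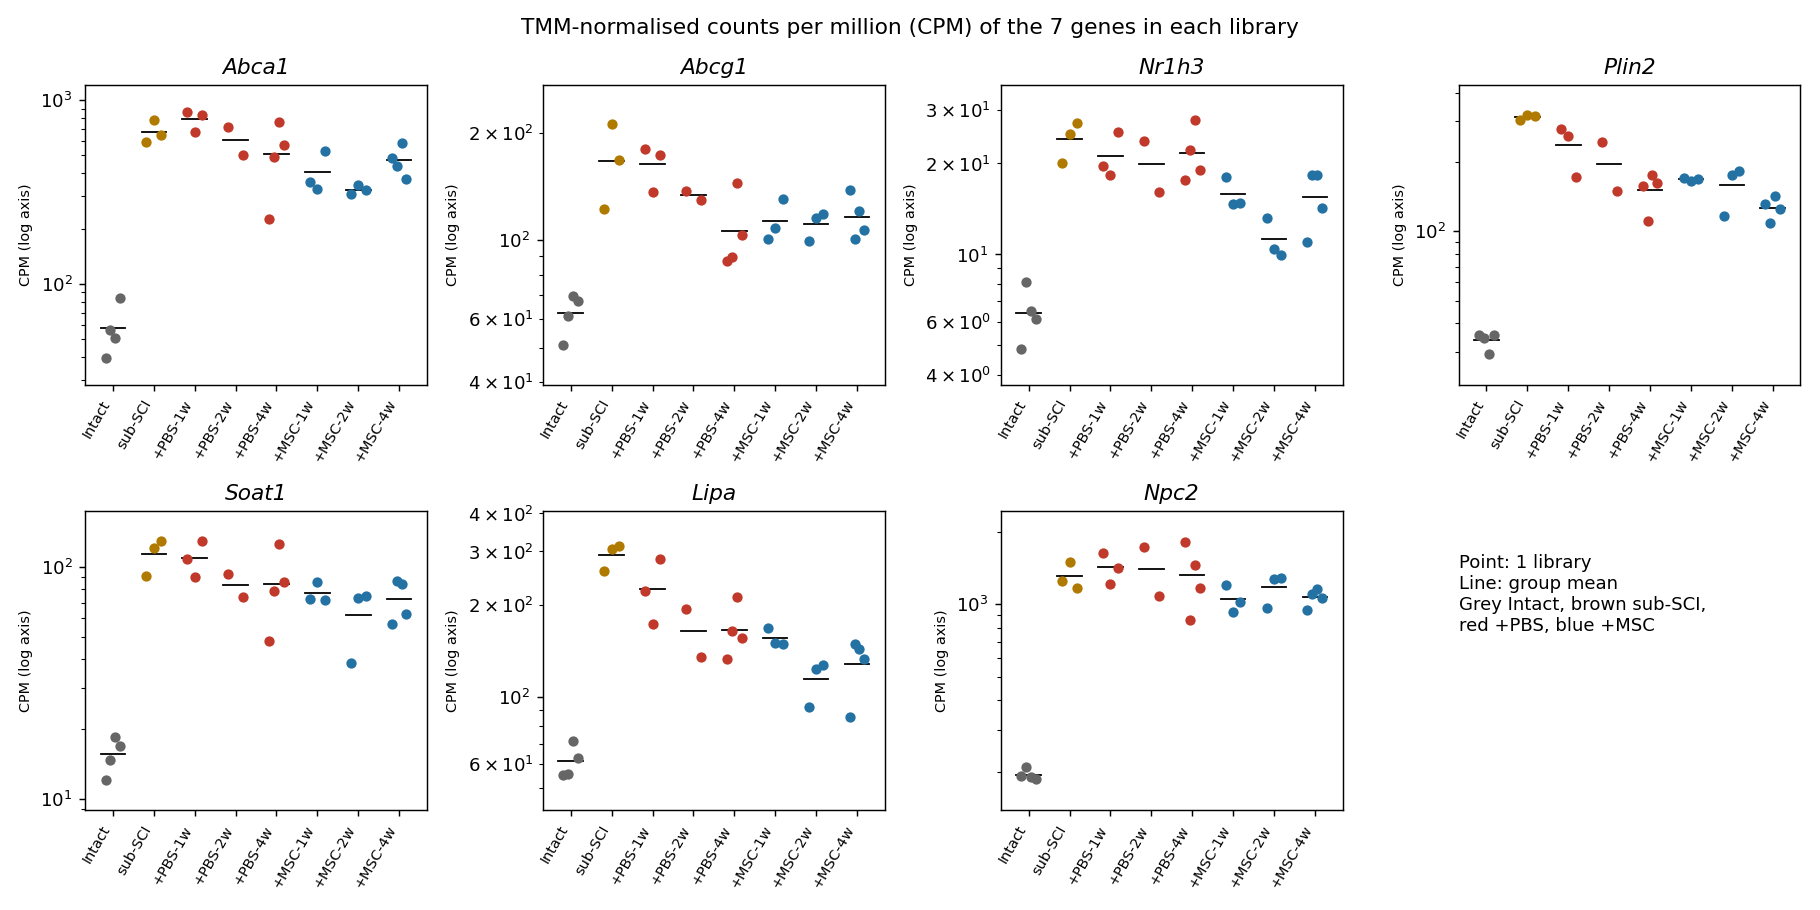
CPM on a log axis (vertical) of each of the 7 genes in every library, by group (horizontal); each point is 1 library and each line a group mean. In each gene the 4 Intact libraries lie below every injured library, and in +PBS-4w Abca1 has 1 library at 224.7 CPM below the other 3.

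The second question was how long the change lasted in injured cord given PBS. All 7 genes were called higher than in Intact in +PBS-1w and in +PBS-2w, where 13.5% and 8.84% of all genes were. In +PBS-4w 6 of the 7 were called higher, against 13.3% of all genes. The exception was Abcg1, whose log2 fold change of 0.77 ± 0.171 (SE; edgeR, adjusted p = 0.000766) was under the limit on the fold change. All 7 genes had every +PBS library above every Intact library at each week, as had 28.5%, 31.1% and 22.4% of all genes at 1, 2 and 4 wpt.

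In +PBS-1w, 14 days after injury, the libraries held 672.5, 825.2 and 863.8 CPM of Abca1, the highest group mean of that gene (787.2 ± 101.2 CPM, SD). The 2 libraries of +PBS-2w held 504.4 and 716.8 CPM and the 4 of +PBS-4w held 224.7, 488.2, 568.8 and 757.6 CPM. The spread was thus widest at 4 wpt, where 1 library, replicate 1, stood below the other 3, and the range of +PBS-4w overlapped those of sub-SCI, +PBS-1w and +PBS-2w. Plin2 stood at 171.9, 260.4 and 276.9 CPM in +PBS-1w, at 149.2 and 244.1 CPM in +PBS-2w and at 110.4, 157.7, 162.7 and 174.8 CPM in +PBS-4w. All of these libraries were below those of sub-SCI, and the +PBS-4w mean of 151.4 ± 28.3 CPM (SD, n = 4) was still 4.5 times the Intact level in the fit.

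Lipa stood at 172.6, 222.3 and 283.1 CPM in +PBS-1w, at 134.6 and 193.8 CPM in +PBS-2w and at 132.4, 155.2, 163.9 and 212.5 CPM in +PBS-4w. Npc2 stood at 1210, 1420 and 1637 CPM, at 1082 and 1727 CPM and at 861.6, 1170, 1450 and 1820 CPM in the same groups. Lipa was lower late than in sub-SCI, whereas the Npc2 group means of 1304 to 1422 CPM in sub-SCI and the +PBS groups differed by less than the spread within +PBS-4w (SD 408.1 CPM). In +PBS-4w the library with the lowest Abca1, replicate 1, had the highest Npc2.

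Abcg1 stood at 136.6, 172.8 and 180.5 CPM in +PBS-1w, at 129.9 and 137.3 CPM in +PBS-2w and at 87.6, 89.5, 103.1 and 144.3 CPM in +PBS-4w. Nr1h3 stood at 18.3, 19.6 and 25.5 CPM, at 16.1 and 23.7 CPM and at 17.7, 19.04, 22.2 and 27.8 CPM. Soat1 stood at 90.2, 107.5 and 129.1 CPM, at 74.2 and 92.7 CPM and at 47.6, 78.5, 85.8 and 125.3 CPM. Nr1h3 showed no order in time beyond its spread, with group means of 19.9 to 24.1 CPM from sub-SCI to +PBS-4w, while the Abcg1 libraries at 4 wpt lay mostly under those at 1 wpt.

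Tested directly between 35 and 7 days after injury, in +PBS-4w against sub-SCI, Plin2 was the 1 gene of the 7 called lower, and 3.09% of all genes were. Its log2 fold change was -1.05 ± 0.183 (SE; edgeR, adjusted p = 0.000306), and the call was lost without +PBS-4w replicate 2 (-0.93, under the limit on the fold change). Plin2, Lipa (-0.82 ± 0.195, adjusted p = 0.00404 in edgeR) and Abcg1 (-0.66 ± 0.182, adjusted p = 0.0113 in edgeR) had an adjusted p under 0.05, that is 3 of the 7, as had 11.6% of all genes in this direction. Plin2 and Lipa had every +PBS-4w library below every sub-SCI library, 2 of the 7, as had 13.8% of all genes. The log2 fold changes of the other 4 genes were 0.02 for Npc2, -0.15 for Nr1h3, -0.40 for Abca1 and -0.43 for Soat1, with adjusted p from 0.233 to 0.946 (edgeR). The fold change of Npc2 was near 0 and changed sign with the settings tried.

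The third question was whether the list differed between +MSC and +PBS. At no week was any of the 7 genes called in either direction. In edgeR 0.0111% of all genes were called lower at 1 wpt and 0% in each of the later weeks, and 0%, 0% and 0.495% were called higher. DESeq2 called none of the 7 either, but more genes in all: 68, 24 and 307 on all libraries and 346, 416 and 251 on the 2 groups of each week. The differences of the list were all negative at 1 and 2 wpt and, with the exception of Abcg1, at 4 wpt, with medians of -0.51, -0.43 and -0.25 on the log2 scale. Over all genes the medians were -0.002, 0.002 and -0.039.

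At 1 wpt every +MSC library was below every +PBS library in all 7 genes, as in 11.6% of all genes, and 5 of the 7 had an unadjusted p under 0.05, as had 7.34% of all genes in that direction. Abca1 held 326.7, 359.3 and 526.8 CPM in +MSC-1w, so the highest of these was below the lowest +PBS-1w library (672.5 CPM). Its log2 fold change was -0.96 ± 0.309 (SE), with an adjusted p of 0.131 in edgeR. Plin2 held 165.7, 168.2 and 171.2 CPM in +MSC-1w, close together and just under the lowest +PBS-1w library (171.9 CPM). Abcg1 held 100.8, 108.1 and 130.8 CPM, Nr1h3 14.7, 14.8 and 18.03 CPM, and Soat1 71.8, 72.9 and 85.6 CPM. Lipa held 149, 150.4 and 167.5 CPM and Npc2 924.8, 1026 and 1197 CPM. The log2 fold changes of these 6 genes were -0.41 (Nr1h3) to -0.54 (Lipa), with adjusted p from 0.174 to 0.349 (edgeR). With DESeq2 on the 6 libraries of this week, Abca1, Abcg1 and Soat1 were lower at an adjusted p under 0.05, as were 4.27% of the genes with an adjusted p. With DESeq2 on all 26 libraries Abca1 alone was, against 2.32%.

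At 2 wpt 4 of the 7 genes, Abca1, Abcg1, Nr1h3 and Lipa, had the groups apart, as had 18.4% of all genes, and 3 had an unadjusted p under 0.05, as had 6.84%. Abca1 held 310.2, 323.2 and 344.9 CPM in +MSC-2w, a narrow range well under both +PBS-2w libraries, and its log2 fold change was -0.90 ± 0.338 (SE; edgeR, adjusted p = 0.306). Nr1h3 held 9.97, 10.5 and 13.2 CPM, the lowest group of that gene among the injured ones, and its log2 fold change was -0.82 ± 0.246 (SE; edgeR, adjusted p = 0.223). Both were lower at an adjusted p under 0.05 with DESeq2 on the 5 libraries of this week, as were 4.19% of the genes with an adjusted p. Lipa held 92.5, 123.3 and 127 CPM and Abcg1 99.2, 115.1 and 118.5 CPM. Plin2 held 117.1, 175.9 and 183.4 CPM, Soat1 38.5, 73.1 and 74.9 CPM and Npc2 964.5, 1272 and 1291 CPM, and in these 3 genes the groups overlapped. Only 2 libraries stood for +PBS-2w, and without its replicate 1 the differences of Plin2 and Npc2 were positive (0.10 and 0.13). In all 7 genes replicate 2 of +PBS-2w was below replicate 1. With single libraries left out, Soat1 ran from -0.58 to -0.17 and Lipa from -0.76 to -0.23. The study describes 1 +PBS-2w sample that clustered with +MSC-2w as an outlier, without naming the library.

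At 4 wpt none of the 7 genes had the groups apart, as 4.47% of all genes had, and 1 of the 7, Nr1h3, had an unadjusted p under 0.05, as had 11.3%. The 4 +MSC-4w libraries held 374.3, 438.1, 484 and 582.8 CPM of Abca1, all within the range of +PBS-4w. They held 10.98, 14.3, 18.3 and 18.3 CPM of Nr1h3, with a log2 fold change of -0.49 ± 0.192 (SE; edgeR, adjusted p = 0.137). Plin2 stood at 109.2, 125.5, 131.1 and 141.9 CPM, Lipa at 85.5, 132.6, 143.7 and 149.3 CPM and Npc2 at 947.1, 1066, 1104 and 1157 CPM. Soat1 stood at 56.4, 62.4, 84.5 and 86.7 CPM and Abcg1 at 100.7, 106.6, 120.7 and 137.8 CPM, the gene whose difference was positive (0.13 ± 0.169). The +MSC-4w libraries of Npc2 were less spread than those of +PBS-4w, with an SD of 89.1 against 408.1 CPM.

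**Figure D2:**
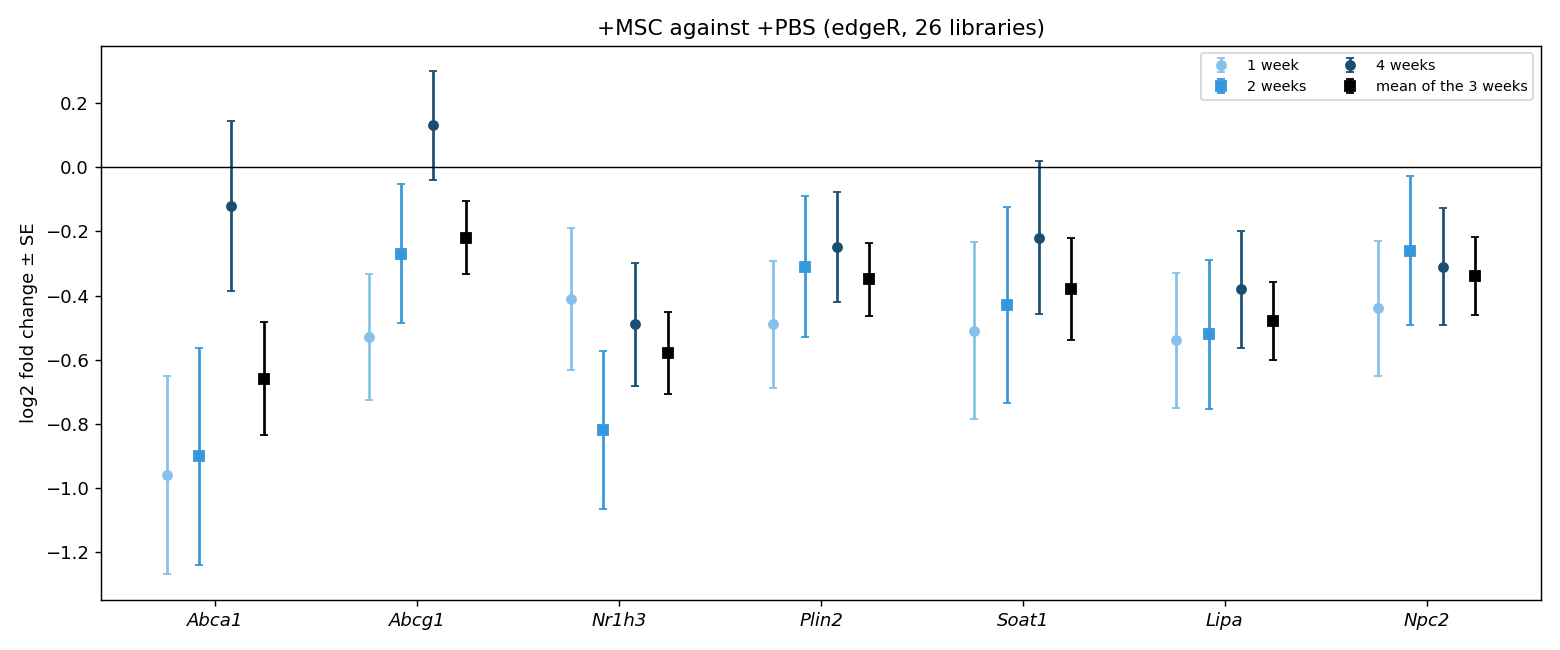
Log2 fold change of +MSC against +PBS (vertical, points with SE bars) for each of the 7 genes (horizontal) at 1, 2 and 4 wpt and as the mean of the 3 weeks. Abca1 stands lowest at 1 and 2 wpt (-0.96 and -0.90) and at -0.12 at 4 wpt, and all 7 means of the 3 weeks are below 0.

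As a mean over the 3 weeks, all 7 genes were lower in +MSC, by -0.22 (Abcg1) to -0.66 (Abca1) on the log2 scale, against a median of -0.017 over all genes. None was called, as 0.956% of all genes were. At an adjusted p under 0.05 with no limit on the fold change 5 of the 7 were lower, as were 10.9% of all genes. These were Abca1 (-0.66 ± 0.176, adjusted p = 0.011), Nr1h3 (-0.58 ± 0.128, adjusted p = 0.00386), Lipa (-0.48 ± 0.121, adjusted p = 0.00785), Plin2 (-0.35 ± 0.114, adjusted p = 0.0302) and Npc2 (-0.34 ± 0.121, adjusted p = 0.049), each by edgeR. In linear terms Abca1 stood at 0.632 and Nr1h3 at 0.671 of the +PBS level. Soat1 (-0.38 ± 0.159) and Abcg1 (-0.22 ± 0.113) had adjusted p of 0.086 and 0.163. The count of 5 rested on single libraries: without +PBS-2w replicate 1 it was 1, Nr1h3, and without +PBS-4w replicate 1 it was 6. The count over all genes moved alike, from 1966 to 823 and 3255. The count of members was 3, namely Abca1, Nr1h3 and Lipa, without +MSC-2w replicate 1, without +PBS-1w replicate 1 and without +PBS-4w replicate 3. The count over all genes in these fits was 1627, 1938 and 1727, so without +PBS-1w replicate 1 it stayed near 1966 while that of members fell. With no replicate 1 library in the fit, a setting chosen after the data were seen, it was 2 (1498 over all genes), Abca1 and Nr1h3. Nr1h3 was the gene that passed at 0.05 under every setting tried. Over the settings other than single libraries left out, Plin2 ran from -0.38 to -0.12 and Npc2 from -0.36 to -0.09.

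The difference between +MSC and +PBS was tested for a change between the 3 weeks. None of the 7 genes passed at an adjusted p under 0.05, and 0% of all genes did in edgeR (DESeq2 gave 4 genes). At an unadjusted p under 0.05 none of the 7 passed and 2.67% of all genes did. The lowest unadjusted p of the list were 0.0528 for Abcg1 and 0.0869 for Abca1 (edgeR, model over all genes), so the smaller difference of Abca1 at 4 wpt was not shown to differ from those at 1 and 2 wpt.

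The list also stood higher in +MSC than in Intact. In +MSC-1w 6 of the 7 genes were called higher, against 7.87% of all genes. In +MSC-2w 4 of the 7 were, against 5.6%, and in +MSC-4w 6 of the 7, against 7.25%. All 7 genes had every +MSC library above every Intact library at 1, 2 and 4 wpt, as had 24.5%, 18.8% and 18.3% of all genes. Abcg1 was not called at any of the weeks (log2 fold changes 0.86, 0.83 and 0.90). Nr1h3 and Lipa missed the limit on the fold change at 2 wpt (0.81 and 0.90). Lipa lay close to that limit: without +MSC-2w replicate 1 it was called at 2 wpt (1.03), and without +MSC-4w replicate 2 its call at 4 wpt (1.06) was lost (0.98). At an adjusted p under 0.05 with no such limit all 7 genes were higher in +MSC-2w, as were 12.7% of all genes. At 4 wpt the fold over Intact was 8.14 for Abca1 in +MSC and 8.84 in +PBS, and for Lipa 2.09 in +MSC and 2.71 in +PBS. These comparisons share their Intact libraries.

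**Figure D3:**
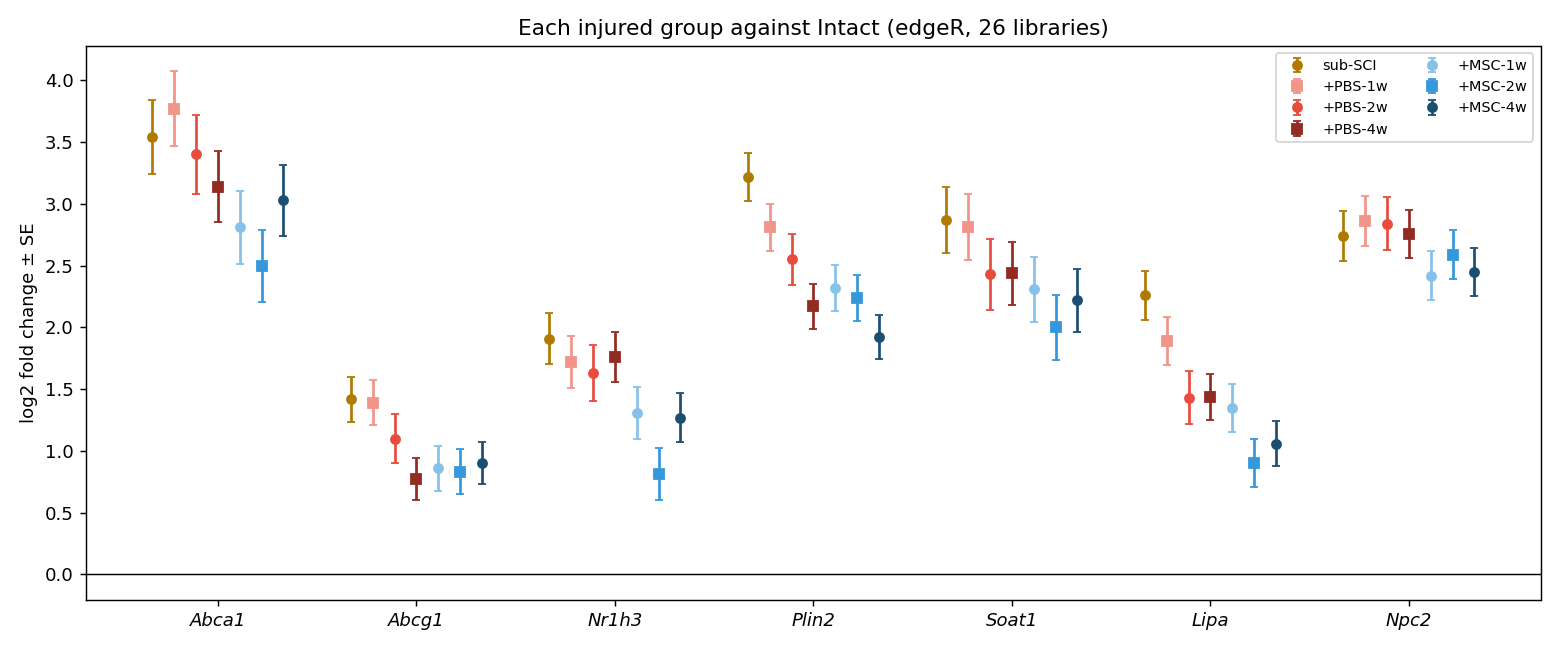
Log2 fold change against Intact (vertical, points with SE bars) of each of the 7 genes (horizontal) in sub-SCI, +PBS and +MSC at each week. Every point is above 0, from 0.77 for Abcg1 in +PBS-4w to 3.77 for Abca1 in +PBS-1w.

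In bulk tissue fewer cells of a type and less RNA per cell cannot be told apart, and the markers of several cell types moved with the list. Of 12 markers of microglia and macrophages (Aif1, Itgam, Csf1r, Cd68, Tyrobp and others), all detected, 10 were called higher in sub-SCI, where 16.6% of all genes were. Their summed level was 343.9 to 543.3 CPM in Intact, 3198 to 4153 CPM in sub-SCI, 3314 to 5033 CPM in +PBS-1w, 2255 to 3349 CPM in +PBS-2w and 1744 to 2833 CPM in +PBS-4w. In +MSC it was 2417 to 2746 CPM, 1735 to 2721 CPM and 1841 to 2351 CPM at 1, 2 and 4 wpt. As a mean of the 3 weeks 10 of the 12 had a negative and 2 a positive difference between +MSC and +PBS. None was called, and 4 were lower at an adjusted p under 0.05 (edgeR), as were 10.9% of all genes. The 8 fibroblast markers were all detected and all called higher in sub-SCI, where 16.6% of all genes were. Their sum was 159.2 to 1085 CPM in Intact and 6864 to 14030 CPM in sub-SCI. It was 3516 to 7942, 1361 to 1922 and 1077 to 3907 CPM in +PBS and 1725 to 2718, 378.7 to 781 and 614.9 to 2198 CPM in +MSC at the 3 weeks. All 8 were lower in +MSC at an adjusted p under 0.05 as a mean of the 3 weeks (edgeR), as were 10.9% of all genes. Of 8 adipocyte markers, whose summed level was 2.02 to 10.1 CPM in Intact and 161.5 to 214.2 CPM in sub-SCI, the defining genes Adipoq and Lep were too low to be tested. The 6 tested did not move as a set. In sub-SCI 3 had a positive and 3 a negative log2 fold change (median -0.03), and 2 were called higher, where 16.6% of all genes were. Of these 2, Fabp4 had a log2 fold change of 6.78 ± 1.011 (SE; edgeR, adjusted p = 6.06e-06). Fabp4 is also counted among the lipid uptake genes below. The 10 neuronal markers, all detected, moved opposite to the list and were all called lower in sub-SCI, where 17.5% of all genes were. Their summed level was 8160 to 10070 CPM in Intact and 303.6 to 1626 CPM in sub-SCI, then 891.7 to 2030, 2064 to 4042 and 1306 to 5100 CPM in +PBS and 2880 to 6039, 4722 to 7539 and 4480 to 6100 CPM in +MSC at the 3 weeks. As a mean of the 3 weeks all 10 were higher in +MSC at an adjusted p under 0.05 (edgeR), as were 12.3% of all genes. Of the 10, 5 were called (3 with median-of-ratios scaling), where 1.61% of all genes were called higher. The 8 oligodendrocyte markers were detected in every group, and 6 were called lower in sub-SCI, where 17.5% of all genes were. The part of these shifts in the results on the list was not tested.

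Set against the mean log2 CPM of the 12 microglia and macrophage markers in the same library, which was 3.18 higher in sub-SCI than in Intact, the genes of the list fell into different places. The markers themselves differed widely, with log2 fold changes from 0.79 (P2ry12) to 7.41 (Cd68) and a median of 3.56. Plin2 differed from the marker mean by 0.05 on the log2 scale. Abca1 rose by 0.41 more than this mean, and its libraries did not overlap (1.41 to 1.77 in Intact, 1.8 to 2.07 in sub-SCI). Its log2 fold change of 3.54 was near the marker median, so it did not rise more than most markers. Soat1 (-0.31) and Npc2 (-0.45) differed from the marker mean in the other direction, with overlapping libraries for Soat1. Lipa (-0.92), Nr1h3 (-1.27) and Abcg1 (-1.78) rose less than that mean by larger amounts. The ranges of Abcg1 show this in single libraries: relative to the markers it stood at 1.46 to 1.86 in Intact and at -0.48 to 0.12 in sub-SCI. Plin2 stood at 0.53 to 1.26 and 0.68 to 1.04, so its groups overlapped. From sub-SCI to +PBS-4w the markers fell by 0.72 while Npc2 differed by -0.02, and relative to them Npc2 ranged between 2.88 and 2.92 in sub-SCI and between 3.31 and 4 in +PBS-4w. Between +MSC and +PBS, as a mean of the 3 weeks, the marker mean differed by -0.28, and the genes of the list differed from it by -0.35 (Abca1), -0.29 (Nr1h3), -0.20 (Lipa), -0.10 (Soat1), -0.05 (Plin2), -0.03 (Npc2) and 0.06 (Abcg1). These relative values are a description and have no test.

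**Figure D4:**
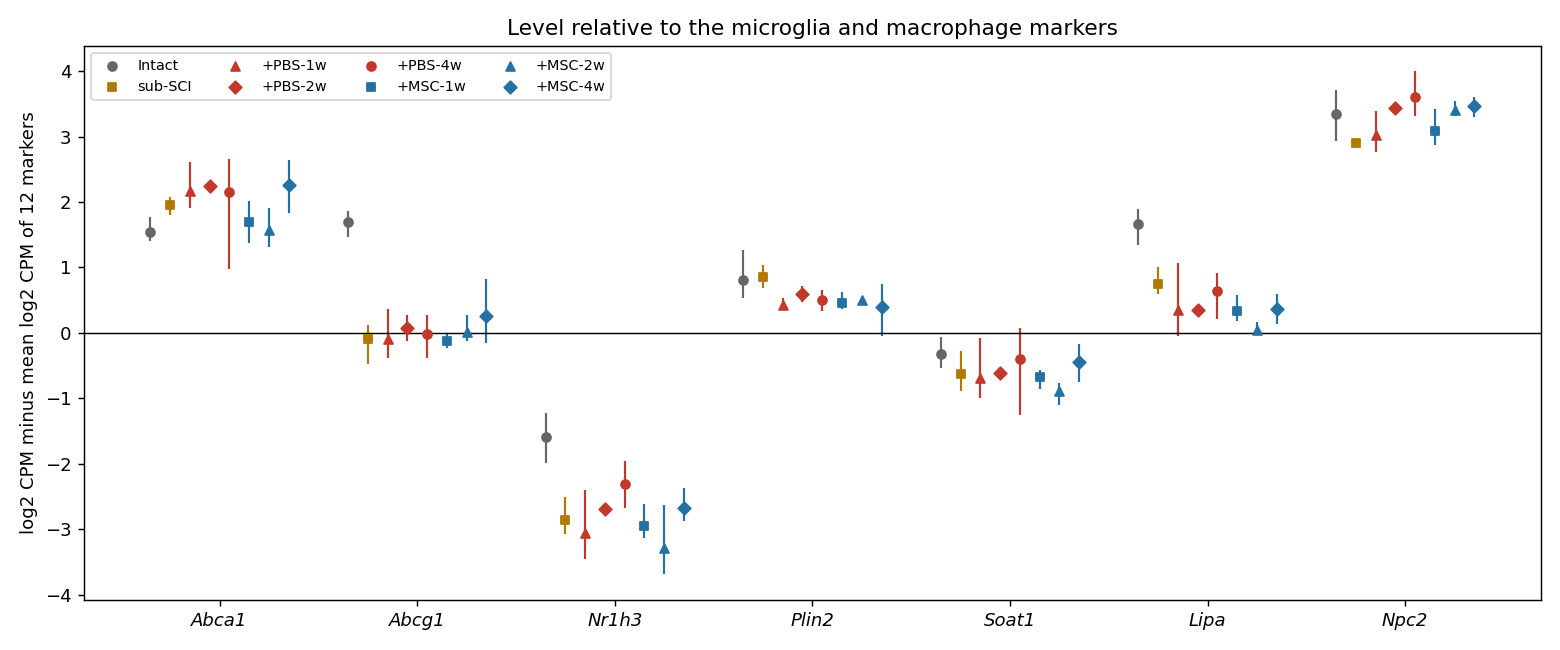
Log2 CPM of each gene minus the mean log2 CPM of 12 microglia and macrophage markers in the same library (vertical), by group; symbols are group means and lines run from the lowest to the highest library. Abcg1, Nr1h3 and Lipa are lower in every injured group mean than in Intact, and Plin2 and Abca1 lie near or above their Intact values in sub-SCI.

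Other genes of the same routes were counted from 5 lists. The efflux and LXR list held 18 genes, of which Arl4c was not analysed here and Apoc1 had 2 rows, so that 18 rows were tested. In sub-SCI against Intact 7 rows were called higher and 3 lower, where 16.6% and 17.5% of all genes were. Higher genes included Apoe, the lipoprotein that accepts exported cholesterol, from 2691 ± 173.6 CPM (SD, n = 4) to 26940 ± 3335 CPM (SD, n = 3). Pltp, a phospholipid transfer protein, went from 117.1 ± 8.48 to 1416 ± 232.6 CPM. Lower genes included Abcg4, a relative of Abcg1 found in neurons and glia, from 39.8 ± 2.76 to 6.19 ± 2.34 CPM, and Abca7, from 131.2 ± 5.12 to 60.1 ± 2.9 CPM. The efflux transporters thus went in different directions, Abca1 and Abcg1 up and Abca7 and Abcg4 down. As a mean of the 3 weeks Abca7 (0.49 ± 0.076, adjusted p = 0.000431) and Abcg4 (0.83 ± 0.135, adjusted p = 0.000538) were higher in +MSC by edgeR at an adjusted p under 0.05, without reaching the limit on the fold change. Of the 2 rows of Apoc1, 1 was called lower there (-1.16), where 0.956% of all genes were. The other row was not called (-0.46, adjusted p = 0.11 in edgeR). In all, 3 of the 18 rows were higher and 7 lower at an adjusted p under 0.05, against 12.3% and 10.9% of all genes, and Apoe was among the lower ones (-0.70, adjusted p = 0.00168 in edgeR).

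Of 18 genes tested in the lipid droplet and cholesterol ester list, 4 were called higher and 3 lower in sub-SCI, with a median log2 fold change of 0.03. Of all genes 16.6% were called higher and 17.5% lower, so these counts were near the shares over all genes. Hilpda, which restrains lipolysis, went from 3.01 to 13.3 CPM and Plin3, another droplet coat protein, from 9.43 to 44.3 CPM. Acsl1, which activates fatty acids, went from 146.2 to 66.4 CPM and Fitm2, which helps droplets form, from 49.7 to 22.1 CPM. Hilpda (-0.53 ± 0.129, adjusted p = 0.00644) and Plin3 (-0.73 ± 0.18, adjusted p = 0.00702) were lower in +MSC at an adjusted p under 0.05 by edgeR as a mean of the 3 weeks.

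Of 18 lipid uptake genes, 17 were tested, and Marco was too low. In sub-SCI 10 were called higher and 1 lower, against 16.6% and 17.5% of all genes. Trem2, a receptor for lipids on microglia, went from 13.02 to 323.6 CPM, and Axl, a receptor for the clearance of dying cells, from 72.3 to 382.8 CPM. Msr1, a scavenger receptor for modified lipoproteins, was called lower in +MSC as a mean of the 3 weeks (-1.08 ± 0.253; edgeR, adjusted p = 0.00544), and Cxcl16 was lower by -0.65 ± 0.181 (edgeR, adjusted p = 0.0142).

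Of 16 lysosomal lipid genes tested, 10 were called higher and none lower in sub-SCI, against 16.6% and 17.5% of all genes. Hexa, which encodes a subunit of an enzyme that degrades gangliosides, went from 66.5 to 482.8 CPM. Lysosomal phospholipase Pla2g15 (-0.62 ± 0.117, adjusted p = 0.00133) and Tfeb (-0.39 ± 0.089, adjusted p = 0.00472), the regulator of lysosomal genes, were lower in +MSC by edgeR as a mean of the 3 weeks. In all, 7 of the 16 were lower there at an adjusted p under 0.05 and none higher, against 10.9% and 12.3% of all genes.

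The sterol synthesis list went the other way. Of its 16 genes, all were lower in sub-SCI and 14 were called lower, with a median log2 fold change of -1.85, against 17.5% of all genes. In +PBS-4w 13 were called lower, against 10.7% of all genes. Msmo1, an enzyme of the late steps, went from 267.7 ± 18.8 CPM (SD, n = 4) to 67.7 ± 15.6 CPM (SD, n = 3), and Srebf2, the regulator of the route, from 251.8 ± 19.6 to 104.6 ± 10.6 CPM. Between +MSC and +PBS all 16 had a positive difference at 1 and 2 wpt (medians 0.39 and 0.49), and at 4 wpt 7 were positive and 9 negative (median -0.02). As a mean of the 3 weeks all 16 were positive, none was called, where 1.61% of all genes were called higher, and 6 had an adjusted p under 0.05, where 12.3% of all genes had. The one with the smallest p was Fdps (0.44 ± 0.1; edgeR, adjusted p = 0.00411), an enzyme of the isoprenoid steps. Oligodendrocyte markers, cells that make much of the cholesterol of myelin, summed to 50020 to 56550 CPM in Intact and 16760 to 34300 CPM in sub-SCI, and their part in the result was not tested. The directions of the sterol synthesis genes were the same with median-of-ratios scaling and with DESeq2.

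**Figure D5:**
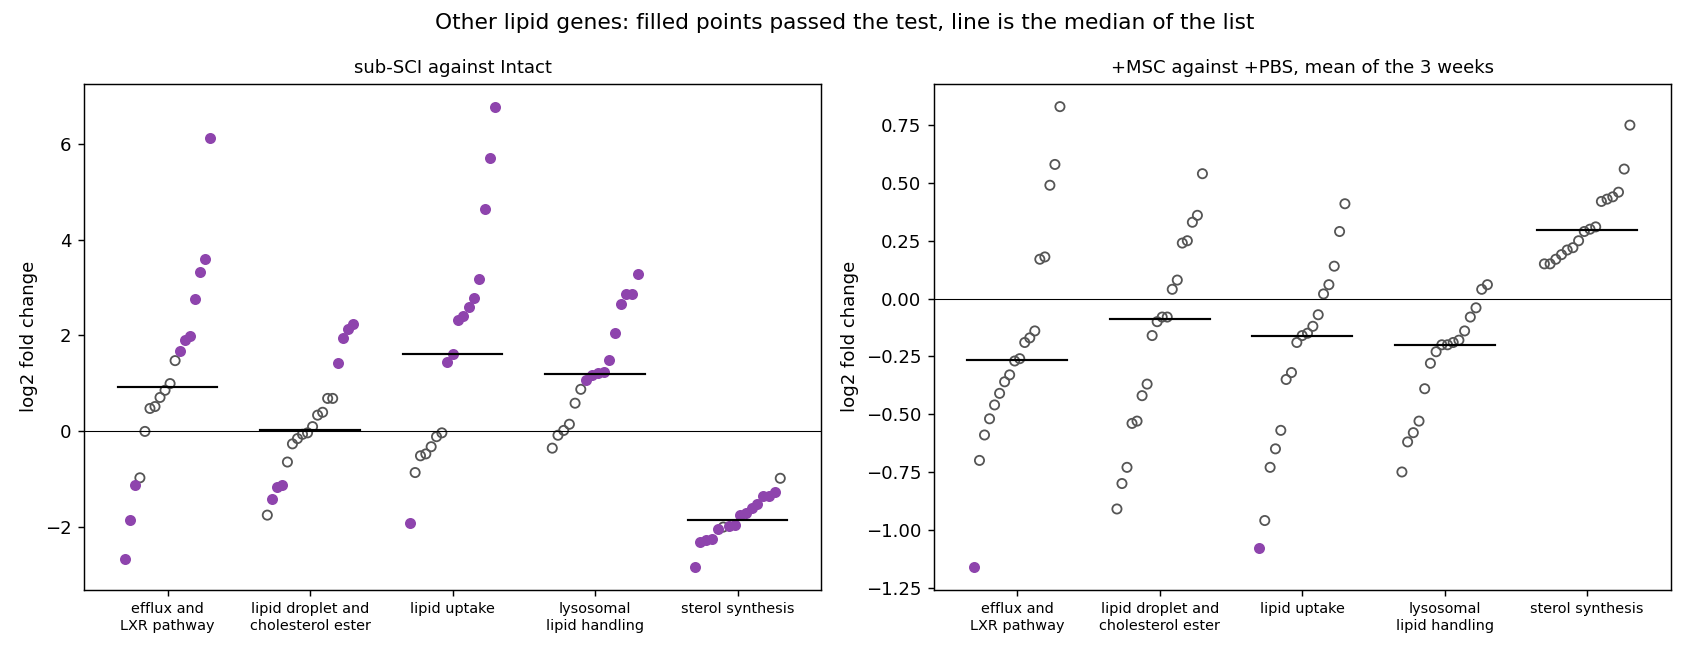
Log2 fold change (vertical) of each gene of 5 lists (horizontal), in sub-SCI against Intact and in +MSC against +PBS as a mean of the 3 weeks; filled points were called and lines are list medians. In the first panel the sterol synthesis genes all lie below 0 (median -1.85) and the lysosomal genes mostly above (median 1.18); in the second the sterol synthesis genes all lie above 0 (median 0.29).

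Across libraries, the genes whose log2 CPM followed each member most closely were found among all genes tested, as a description over 26 libraries that share their groups. For Abca1 they were Pik3r5 (Pearson's r = 0.974), RGD1305807 (0.970) and Cd53 (0.969), and for Soat1 Pik3r5 (0.986), Pgghg (0.982) and RGD1305807 (0.981), so these 2 members shared 2 of their nearest genes. For Plin2 they were the lysosomal proteases and nuclease Ctsz (0.983), Lgmn (0.981) and Dnase2 (0.979). For Lipa they were Anpep (0.976), Bcl2l11 (0.974) and Gnpda1 (0.972), for Npc2 Rspo1 (0.978), Tmem176b (0.977) and Laptm5 (0.975), and for Nr1h3 Tax1bp3 (0.967), Cmtm6 (0.966) and Arhgap10 (0.960). Abcg1 had the loosest neighbours, Pabpc1 (0.930), Stk10 (0.926) and LOC691141 (0.921). Within the list, Pearson's r ran from 0.776 (Abcg1 with Nr1h3) to 0.963 (Abca1 with Soat1) over 26 libraries. Over the 22 injured libraries alone it ran from 0.277 (Abca1 with Npc2) to 0.867 (Soat1 with Lipa), and each of these values was lower than over all 26.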

How the data were processed

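RNA sequencing reads of 26 libraries had been trimmed by the authors with Trim Galore 0.5.0, filtered of reads that HISAT2 2.1.0 mapped to the human genome (GRCh38), aligned to the rat genome (Rnor6), limited to proper pairs with SAMtools 1.9 and counted per gene with featureCounts 1.6.4. The deposited values are raw counts per gene, without normalization. The annotation release and strand setting are not given in the sources used here, so reads of overlapping genes may be mixed, and removal of reads that also match human sequence may lower counts of conserved genes, which was not tested. The methods of the study give 2 libraries for +MSC-2w and the labels 3, with 2 for +PBS-2w, and the labels were followed. No column was left unmapped, and each library's own counts equalled those in the joint table.

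For the tests edgeR 4.0.16, DESeq2 1.42.0 and limma 3.58.1 were run under R 4.3.3. After filterByExpr, which left 17990 genes, libraries were scaled by TMM and the counts fitted in 1 model with 8 groups and no covariates (glmQLFit, glmQLFTest), with Benjamini-Hochberg adjustment. SE was taken from the fold change and its F. Log2 CPM used a prior count of 2. The script was tested on simulated data. Depth of 19496602 to 43468509 counts per library left at least 89 counts of each of the 7 genes in every library. Named genes are the 7 members, in each list the 2 genes called with the smallest adjusted p in each direction in sub-SCI and the 2 with the smallest p between +MSC and +PBS, and the 3 nearest genes of each member; Apoc1 was named after its values were seen, and some genes that the rule names are not reported here. Members and lists were chosen with earlier results of these data known. Alternatives were DESeq2 on all libraries or on the 2 groups compared, median-of-ratios scaling, other filters, the replicate number as a block, a term for replicate 1, an adjusted p under 0.05 with no fold limit and each library left out; the fit without replicate 1 was chosen after seeing the data.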

Additional observations from a re-analysis of the deposited data

How the results depend on the processing

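Among the refits of member fold changes 1311 kept their direction and their side of the threshold, 15 turned direction, 3 lost and 1 gained a call. Beside the calls of Plin2 and Lipa named above, Abcg1 in +PBS-2w against Intact fell to 0.99 among libraries other than replicate 1. No fold change against Intact turned direction. Those that turned were small. Plin2 and Npc2 in +MSC-2w against +PBS-2w were 0.26 and 0.23 among libraries other than replicate 1, and ran from -0.62 to 0.10 and from -0.56 to 0.13 with single libraries left out. In +MSC-4w against +PBS-4w Abcg1 was -0.03 among libraries other than replicate 1, and Abca1 ran from -0.39 to 0.14 and Soat1 from -0.44 to 0.04 with single libraries left out. Npc2 in +PBS-4w against sub-SCI was -0.02 with DESeq2 on all libraries, with median-of-ratios scaling and with no filter, -0.24 among libraries other than replicate 1, and ran from -0.18 to 0.18 with single libraries left out. With an adjusted p under 0.05 and no limit on the fold change, 5 members differed between +MSC and +PBS as a mean of the 3 weeks, 7 between +MSC-2w and Intact and 3 between +PBS-4w and sub-SCI, and the count of the last, 1 otherwise, ran from 0 to 1 with single libraries left out. Whether replicate numbers paired the +MSC and +PBS libraries was not settled. Deviations of same-numbered ones correlated at -0.078 to 0.233 and those of other pairs at -0.217 to 0.188. At 1 and 4 wpt most but not all +MSC libraries correlated best with their own number. At 2 wpt the deviations of the 2 +PBS libraries mirror each other, so that week cannot tell. Replicate 1 libraries moved together over the groups in the genes counted above. With a term for them 5 members had an adjusted p under 0.05 as a mean of the 3 weeks. Of all genes 2497 were lower at that limit with the term, against 1966 in the main fit. The replicate block changed no count of members called in the 13 comparisons, with 7 called in sub-SCI and 0 between +MSC and +PBS. As a mean of the 3 weeks 5 members had an adjusted p under 0.05 with it, Soat1 in place of Npc2. Of all genes 2435 were lower at that limit with the block. Only 2 libraries in +PBS-2w limit that week.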
